A study of Mus musculus with 4 samples.

Results

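Small nucleolar RNAs (snoRNAs) and small Cajal body RNAs (scaRNAs) were examined in total RNA of mouse pancreatic islets, the clusters of endocrine cells that release insulin and other hormones. The 119 rows were those of a deposited table of 24940 genes whose symbol starts with Snora, Snord or Scarna followed by a digit. They comprised 74 Snord rows, 36 Snora rows and 9 Scarna rows. The study set islets of male Tafazzin-knockdown mice (replicates 3 and 4) against islets of male non-transgenic control mice (replicates 1 and 2), and Tafazzin is the mitochondrial enzyme that remodels cardiolipin. All mice were 3 to 4 months old and ate a low-fat chow, and each library pooled about 300 islets of 2 to 3 mice. The controls lack the transgene, so that an effect of carrying it and an effect of losing Tafazzin cannot be told apart, and p-values measure the spread between these pooled samples. The labels used here name neither the promoter nor the inducing agent of the knockdown. Ribosomal RNA was removed, and the remaining RNA was fragmented and random primed.

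Box C/D snoRNAs guide the methyltransferase Fbl to riboses of ribosomal RNA, and box H/ACA snoRNAs guide the pseudouridine synthase Dkc1 to uridines. ScaRNAs carry the same boxes, stay in Cajal bodies, the nuclear bodies where spliceosomal RNAs mature, and guide the same changes on those RNAs. In mammals nearly all of these RNAs are cut from the introns of a host gene after splicing and are held by a few core proteins, so that the host's transcript and the small RNA can have different fates. Roles given below for single RNAs come mainly from work on human cells.

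In the knockdown islets the box C/D snoRNA Snord17, the box H/ACA snoRNA Snora74a and the scaRNA Scarna6 were lower by limma. Of all 13560 rows tested, 0.0516% were called lower. The call of Snora74a was lost in edgeR, in DESeq2 and with TMM or median-ratio scaling, and that of Snord17 was lost in DESeq2. The test of the ratio to the host called 0 of 8 small RNAs, but it also called 0 of all 400 pairs of nested rows. It therefore does not show that the small RNAs moved with their hosts. At an unadjusted p under 0.05 there were 5 of the 8, against 10.0% of all pairs. EdgeR also called the row of Atg16l1, the host of Scarna6, lower, but that row still held the Scarna6 reads. Scarna6 came to 0.315 of its control mean, Snord17 to 0.454 and Snora74a to 0.494. Scarna13 stood at 2.25 times its control mean in both knockdown libraries, without passing the adjusted test. The lowest value of 6 of the 9 tested RNAs was in knockdown replicate 4. The same was true of 10.0% of all tested rows and of 21.4% of 28 other tested rows under 350 nt. In knockdown replicate 3 the falls were smaller, with Scarna6 at 0.482 of its control mean, Snord17 at 0.561 and Snora74a at 0.711.

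The structure that defines the classes can be read in some of the RNAs that the results turn on. A box C/D RNA carries a C box near its 5′ end (searched as TGATGA) and a D box near its 3′ end (searched as CTGA), and an H/ACA RNA carries ACA 3 bases before its end. The sequences below are the DNA letters of the annotated RNA strand, from GENCODE M21 on GRCm38 (mm10), 5′ to 3′. In Snord17 (chr2:144265979-144266216, minus strand, 238 nt, in an intron of the sorting nexin gene Snx5), Scarna6 (chr1:87784556-87784820, plus strand, 265 nt, in an intron of the autophagy gene Atg16l1) and Scarna13 (chr12:105031075-105031349, minus strand, 275 nt, in the noncoding host Snhg10), capitals mark these boxes.
Snord17: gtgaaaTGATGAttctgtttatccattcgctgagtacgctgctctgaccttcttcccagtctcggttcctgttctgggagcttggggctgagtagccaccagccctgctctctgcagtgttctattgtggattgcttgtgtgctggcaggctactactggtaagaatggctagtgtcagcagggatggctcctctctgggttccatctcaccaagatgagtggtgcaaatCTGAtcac
Scarna6: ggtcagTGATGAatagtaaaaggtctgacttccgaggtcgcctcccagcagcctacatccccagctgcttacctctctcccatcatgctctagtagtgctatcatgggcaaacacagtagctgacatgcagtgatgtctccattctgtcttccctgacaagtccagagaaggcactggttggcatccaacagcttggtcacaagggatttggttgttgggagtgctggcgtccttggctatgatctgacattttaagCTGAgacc
Scarna13: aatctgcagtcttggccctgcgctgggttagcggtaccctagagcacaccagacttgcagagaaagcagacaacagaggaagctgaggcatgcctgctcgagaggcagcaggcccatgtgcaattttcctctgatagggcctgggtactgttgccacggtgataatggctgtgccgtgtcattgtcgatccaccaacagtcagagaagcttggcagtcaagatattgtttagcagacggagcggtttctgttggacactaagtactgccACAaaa
In the others, the last 160 nt are shown. In Scarna2 (chr3:108554338-108554751, minus strand, 414 nt, in no other annotated gene) and Scarna10 (chr6:125186359-125186683, minus strand, 325 nt, in the condensin gene Ncapd2), capitals mark instead the stretch that the deposited row covers, bases 350 to 410 and bases 253 to 323 from the 5′ end. Only 61 of the 414 nt of Scarna2 and 71 of the 325 nt of Scarna10 were therefore counted as these RNAs.
Scarna2: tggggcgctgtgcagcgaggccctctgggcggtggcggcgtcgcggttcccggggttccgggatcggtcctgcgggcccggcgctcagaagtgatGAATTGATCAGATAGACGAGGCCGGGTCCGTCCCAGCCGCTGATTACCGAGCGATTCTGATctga
Scarna10: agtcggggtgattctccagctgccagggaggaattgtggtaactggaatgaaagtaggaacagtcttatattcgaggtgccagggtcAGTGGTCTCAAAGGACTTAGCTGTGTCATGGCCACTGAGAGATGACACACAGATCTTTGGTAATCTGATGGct
Over annotated RNAs, a TGATGA within the first 20 bases was present in 70.7% of 99 Snord-named transcripts, 0% of 42 Snora-named transcripts and 44.4% of 9 Scarna-named transcripts. It was present in 0.699% of all 141704 transcripts. A CTGA within the last 20 bases was found in 98.0% of Snord-named, 11.9% of Snora-named and 55.6% of Scarna-named transcripts, and in 9.24% of all. ACA at 3 bases from the end was found in 83.3% of Snora-named, 22.2% of Scarna-named and 0% of Snord-named transcripts, and in 2.45% of all. Among the tested RNAs, none of the searched motifs was found in Snora74a or Snora44, and Scarna2 and Snord22 held only the CTGA. Only the RNA's own strand was searched, the motifs do not overlap one another, and a match is a description of letters only.

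Few reads lay in these rows. A unit below is 1 read per 10000000 reads of the library, not scaled by gene length, and 1 read was worth 0.123 to 0.145 units. All 119 rows together held 543 reads in control replicate 1, 523 in control replicate 2, 462 in knockdown replicate 3 and 324 in knockdown replicate 4. That is 78.9 and 64.5 units in the controls against 60.2 and 41.2 units in the knockdown libraries, and the knockdown libraries lay below both controls. Libraries held 68823160 to 81073502 reads, of which the ribosomal precursor row Rn45s took 41.6% to 42.6%. Reads outside the 13 most abundant rows numbered 4320910 to 4962798, and the small RNA rows held 0.0118% and 0.0121% of them in control islets against 0.00953% and 0.00653% in knockdown islets.

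By class, Snord rows summed to 37.2 and 23.9 units in the controls and to 23.6 and 13.4 units in the knockdown libraries. Snora rows summed to 14.4 and 13.9 units in the controls and to 13.04 and 7.38 units in the knockdown libraries. Scarna rows summed to 27.3 and 26.6 units in the controls and to 23.6 and 20.5 units in the knockdown libraries. In each class replicate 4 of the knockdown was the lowest, and replicate 3 lay below the lower control. Each sum included 1 row that limma called lower. Snord17 had 16.4 and 11.5 units in the controls against 7.83 and 4.83 in the knockdown libraries. Snora74a had 8.72 and 9.62 units against 6.52 and 2.54, and Scarna6 had 10.6 and 11.6 against 5.35 and 1.65. By contrast, Scarna13 and Snora44 lay above both controls. Neither these sums nor that over all 119 rows therefore shows that the other rows fell.

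The rows with enough reads to test held the longer RNAs. Of the 119 rows, 73 had a read in any library and 46 had none, and a row with no read may hold up to 3 reads' worth, 0.370 to 0.436 units per library. Only 14 rows had a read in every library. A mean of at least 1 unit, the level asked for before testing, was reached by 9 rows, which held 85.7% of the 1852 reads. These were Snord17, Snord15b, Snord22, Snora74a, Snora44, Scarna2, Scarna6, Scarna10 and Scarna13. Of the 115 rows matched to a GENCODE RNA, all 5 of at least 200 nt were tested, as were 4 of 48 with 100 to 199 nt and 0 of 62 under 100 nt. The median annotated length was 238 nt for the tested RNAs, 94 nt for 63 RNAs with a read but too few to test, and 85 nt for 43 RNAs with no read. The part of RNA length in the number of reads was not tested. The plot of reads against annotated length shows the same separation.

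**Figure D1:**
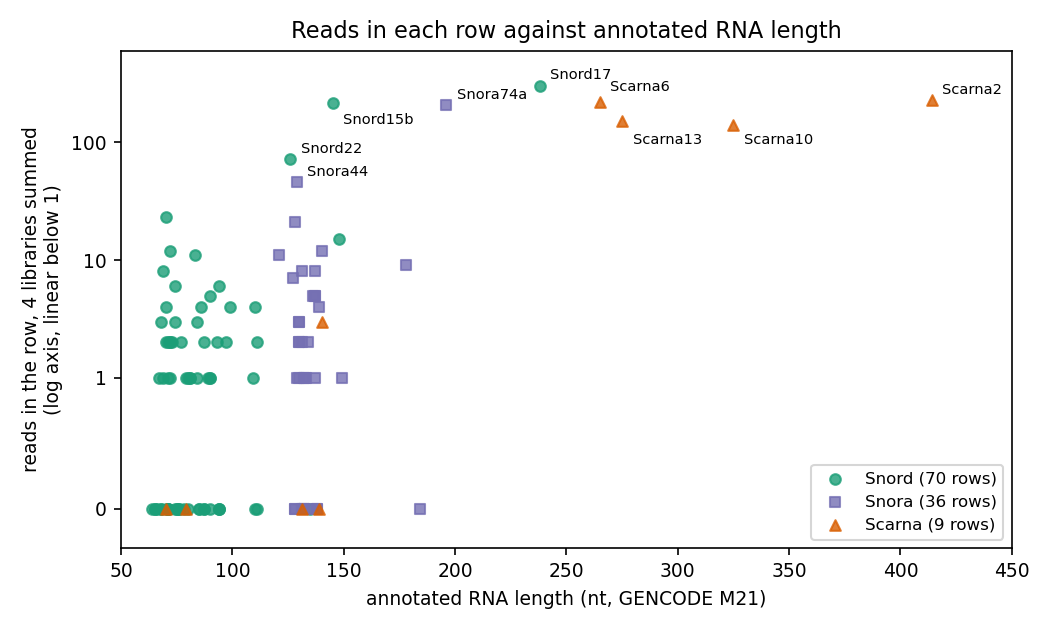
Reads per row summed over the 4 libraries (log axis, linear below 1) against the annotated length of the RNA in nt, for 115 matched rows; each point is a row, coloured by class, and tested rows are named. All 5 RNAs of at least 200 nt hold over 100 reads, whereas no RNA under 100 nt reached the mean of 1 unit.

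The other 64 rows with a read were too thin for a test of each. The most abundant of them was Snord104, with 0.872, 0.617, 0.913 and 0.636 units in control replicates 1 and 2 and knockdown replicates 3 and 4. Its groups overlapped. The next was Snora78, inside the noncoding host Snhg9, with 0.872 and 0.740 units in the controls and 0.652 and 0.509 units in the knockdown libraries. Snord15a, the paralog of Snord15b in the same host Rps3, had 0.872 and 0.493 units in the controls and 0.391 and 0.254 units in the knockdown libraries. Taken over all untested rows, the sums were 13.1 and 7.77 units in the controls and 7.43 and 6.86 units in the knockdown libraries, so that the difference between the controls was larger than that between control replicate 2 and either knockdown library. The 6 rows listed with more than 1 copy, the 3 Snord116 rows among them, had 0 reads in every library.

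Whether a row holds the small RNA or the intron around it can be described by density per length. Of the 119 rows, 111 lay inside another row (110 on the same strand), in 82 hosts, and 8 lay in none, Scarna2 among them. Hosts included 21 ribosomal protein genes with 30 of the rows, and Snhg, Gas5, Zfas1 or Dancr noncoding genes with 17. All 8 tested rows with a host had more units per 100 nt than the rest of the host, after the reads of small RNA rows were taken off. The mean of 1 unit asked for before testing fixed this in advance for all but Snord15b. Those rows were 71 to 275 nt long, and the rest of their hosts held only 0.0630 to 0.280 units per 100 nt. The count of 8 therefore cannot be set against that of the untested rows. The ratio of densities was 54.9 for Snora74a, 36.3 for Scarna10, 31.8 for Scarna6, 24.1 for Scarna13, 16.4 for Snord17, 7.41 for Snord22, 4.56 for Snora44 and 1.65 for Snord15b. The annotated Snord15b, Snord22, Snora44 and Scarna10 overlap an exon of Rps3, Snhg1, Snhg12 and Ncapd2, so that their reads cannot be told apart from reads of the host's transcript. Nor can those of Snora74a be told apart from reads of AC121821.1 and Gm49347, whose exons it overlaps on the same strand. Of the 63 untested rows with a host and a read, 12 were denser than the rest of the host, and the median ratio was 0.238. In the other untested rows, reads of the small RNA could thus not be told apart from reads of the host. Some of the 12 denser rows held too few reads to tell them apart either, such as 1 read of Snord64 and 3 of Scarna3a.

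**Figure D2:**
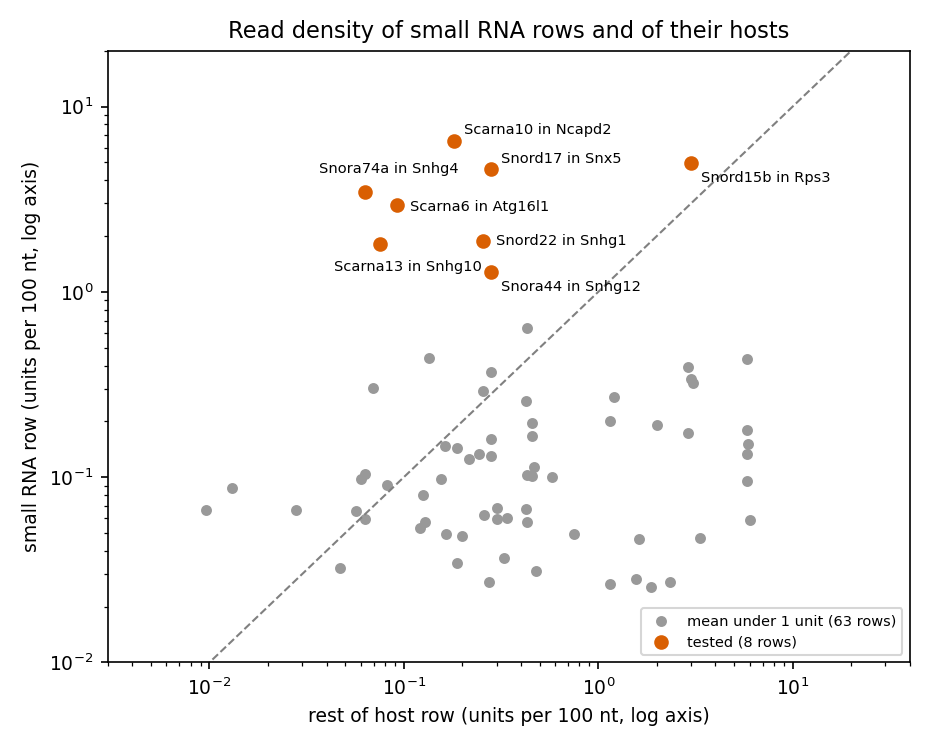
Units per 100 nt in the small RNA row against units per 100 nt in the rest of its host, means of the 4 libraries on log axes; the dashed line marks equal density. The 8 tested rows with a host (orange) all lie above the line, Snord15b the closest to it at a ratio of 1.65, and 12 of 63 untested rows (grey) lie above it.

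The knockdown and control libraries were compared with limma on log2(value + 1) over all 13560 rows with a mean of at least 1 unit, with Benjamini-Hochberg adjustment at 0.05. The median log2 change of all rows was 0.17, and log2 changes below are given relative to it, while p-values test the change without that shift. Of all rows, 2.5% were called higher and 0.0516% lower, which is 339 and 7 rows. After median-ratio scaling the split was 148 higher and 21 lower, or 1.09% and 0.155%. Of the 9 tested small RNA rows, 3 were called lower and 0 higher. The other 4 rows called lower in the table were Reg3g, Reg3a, Reg2 and Derl3, named after their values were seen. At an unadjusted p under 0.05, 4 of the 9 were lower and 1 higher, against 0.479% lower and 9.86% higher of all rows. With edgeR's quasi-likelihood test on the recovered reads, 2 of the 9 were called lower and 0 higher, where 0.133% of all rows were called lower and 1.2% higher. DESeq2 called 1 of the 9 lower and 0 higher, where it called 0.0737% of all rows lower and 0.597% higher. Without knockdown replicate 4, limma called 0 of the 9 lower, with 0.0221% of all rows lower and 2.39% higher, and edgeR called 1 lower, with 0.413% of all rows lower and 2.86% higher. That edgeR test was added after seeing the data. The groups did not overlap in 7 of the 9, with the knockdown below both controls in 5 (4.51% of all tested rows) and above both in 2 (34.9% of all tested rows). Of the 2 rows above both controls, Snora44 had a control mean under 1 unit and passed the filter only through the knockdown group. The median relative log2 change was -0.55 over the 9 rows, beside 0 for all rows by construction.

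**Figure D3:**
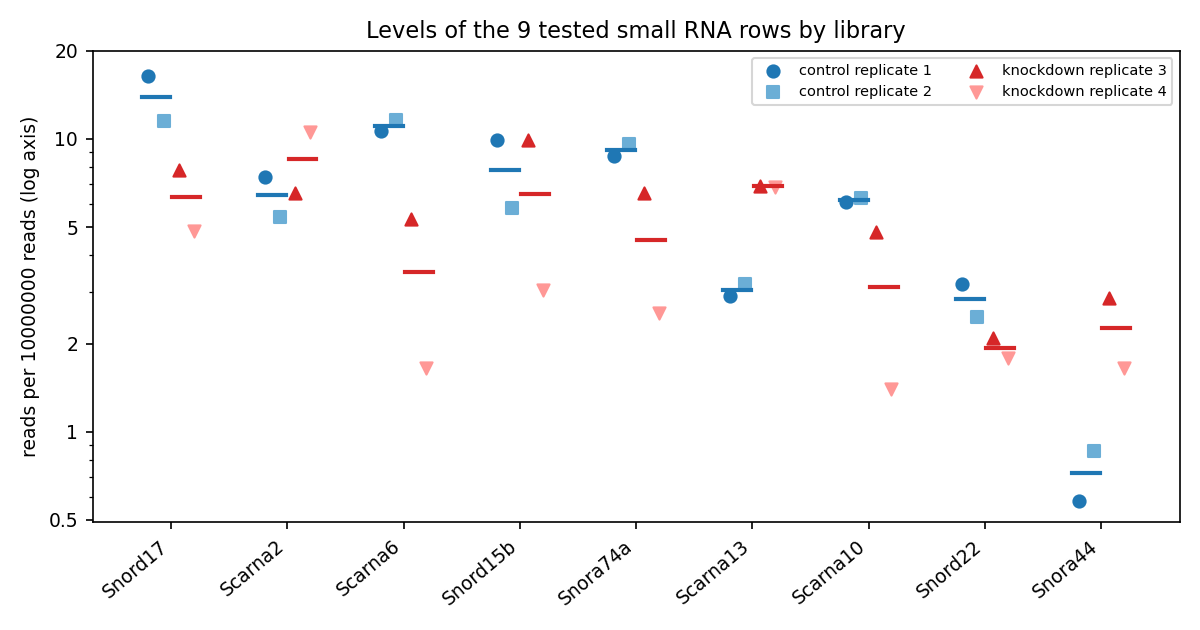
Level of each tested row in reads per 10000000 reads (log axis) in the 4 libraries; short bars are group means of 2 libraries. The knockdown libraries lie below both controls for Snord17, Scarna6, Snora74a, Scarna10 and Snord22, and above both for Scarna13 and Snora44.

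Among the box C/D RNAs, Snord17, which guides methylation of the large ribosomal RNA, held the most reads of all the rows. It had 16.4 and 11.5 units in control replicates 1 and 2 and 7.83 and 4.83 units in knockdown replicates 3 and 4, from 113, 93, 60 and 38 reads. Both knockdown libraries were below both controls, and replicate 4 was the lowest. The mean was 13.9 ± 3.50 units (SD, n = 2) in controls and 6.33 ± 2.12 units (SD, n = 2) in knockdown islets. The relative log2 change was -1.20 (SE 0.27), with a limma adjusted p of 0.00786, an edgeR adjusted p of 0.0167 and a DESeq2 adjusted p of 0.0612. Without knockdown replicate 4 the change was -0.92 and limma's adjusted p 0.522. Limma's adjusted p was 0.0974 without control replicate 1 and 0.065 without knockdown replicate 3.

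Snord15b, another guide for methylation of the large ribosomal RNA, did not separate the groups. It had 9.88 and 5.80 units in the controls and 9.91 and 3.05 units in knockdown replicates 3 and 4. Replicate 3 held the highest and replicate 4 the lowest value of the 4 libraries, and limma's adjusted p was 0.784. Snord22, a C/D-type RNA needed for processing of the small ribosomal RNA rather than for a methylation, lies in an annotated exon of Snhg1. Its levels were 3.20 and 2.47 units in the controls and 2.09 and 1.78 units in the knockdown libraries. The groups did not overlap, but the relative log2 change of -0.55 (SE 0.39) had a limma adjusted p of 0.861.

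Of the H/ACA snoRNAs, Snora74a lies on chromosome 18 within the row of the noncoding host Snhg4, and its annotated position overlaps exons of the transcripts AC121821.1 and Gm49347. It had 8.72 and 9.62 units in the controls and 6.52 and 2.54 units in knockdown replicates 3 and 4. The controls were close together, replicate 3 was moderately below them and replicate 4 well below. The relative log2 change was -1.14 (SE 0.29), with adjusted p = 0.0366 in limma and 0.143 in edgeR. After median-ratio scaling limma's adjusted p was 0.0848, and without knockdown replicate 4 the change was -0.62 and no longer called. Without control replicate 2 it was -0.94, with a limma adjusted p of 0.229. Snora44 lies in an annotated exon of Snhg12 and passed the filter on low values only through the knockdown group. Its levels were 0.581 and 0.863 units in the controls, from 4 and 7 reads, and 2.87 and 1.65 units in the knockdown libraries, from 22 and 13 reads. The groups did not overlap, with a relative log2 change of 0.74 (SE 0.46) and a limma adjusted p of 0.483.

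Among the scaRNAs, Scarna6, which combines C/D and H/ACA parts in 1 RNA, changed the most. It had 10.6 and 11.6 units in the controls and 5.35 and 1.65 units in knockdown replicates 3 and 4, from 73, 94, 41 and 13 reads. Replicate 3 was near the middle of the range and replicate 4 far below all others. The mean was 11.1 ± 0.698 units (SD, n = 2) in controls and 3.50 ± 2.61 units (SD, n = 2) in knockdown islets. The relative log2 change was -1.72 (SE 0.29), with adjusted p = 2.33e-05 in limma, 0.0114 in edgeR and 0.0274 in DESeq2. Without knockdown replicate 4 the change was -1.11, with an adjusted p of 0.219 in limma and 0.0415 in edgeR. Without control replicate 1 or 2 limma's relative log2 change was -1.92 or -1.53. Those fits rest on 1 control, so that no weight is placed on their p-values in limma or edgeR.

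Scarna10, likewise a composite RNA that guides changes on the U5 spliceosomal RNA, had 6.10 and 6.29 units in the controls and 4.83 and 1.40 units in knockdown replicates 3 and 4. Both knockdown libraries were below the controls, replicate 4 by far the more. The relative log2 change of -1.11 (SE 0.33) had a limma adjusted p of 0.102, and of 0.0314 without knockdown replicate 3. Without knockdown replicate 4 the change was -0.49, with a limma adjusted p of 1.0. Scarna2, a box C/D guide for the U2 spliceosomal RNA that is transcribed from its own gene, had 7.41 and 5.43 units in the controls and 6.52 and 10.6 units in the knockdown libraries. It was the only tested scaRNA whose highest value was in replicate 4, its groups overlapped, and limma's adjusted p was 0.805. Scarna13, an H/ACA-type scaRNA, had 2.91 and 3.21 units in the controls and 6.91 and 6.87 units in the knockdown libraries. The libraries of each group lay close together, and the knockdown libraries were above both controls. The relative log2 change was 0.80 (SE 0.32), with an adjusted p of 0.0738 in limma and 0.32 in edgeR. The microRNA row Mir3069 lies inside Scarna13, so that part of these reads stand in both rows.

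Hosts were compared to ask whether a small RNA moved with the transcript around it. Of the 82 hosts, 77 were tested, 1 was called higher and 0 lower by limma, and 12 had an unadjusted p under 0.05. Over all 13560 rows, 2.5% were called higher and 1402 had an unadjusted p under 0.05. The host called higher was Rpl13, a ribosomal protein gene named after its values were seen, with 6.39 and 3.33 units in the controls and 8.87 and 10.9 units in the knockdown libraries (limma adjusted p = 0.0429). Its edgeR adjusted p was 0.272, and limma called it without control replicate 1 but not without any of the other 3 libraries. The median relative log2 change of the hosts was 0.08, with a range from -0.95 to 0.96, and that of the 21 ribosomal protein hosts was 0.21.

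Snx5, the host of Snord17, had 87.2 and 53.4 units in the controls and 64.4 and 65.4 units in the knockdown libraries. These values overlapped, unlike those of Snord17. Atg16l1, the host of Scarna6, had 50.3 and 45.9 units in the controls and 38.3 and 28.7 units in the knockdown libraries, with an adjusted p of 0.401 in limma and 0.0185 in edgeR. With the Scarna6 reads taken off, Atg16l1 held 39.7, 34.3, 33.0 and 27.1 units, so that the knockdown libraries were still the lower but by less. Without knockdown replicate 4, edgeR's adjusted p for the Atg16l1 row was 0.102. Ncapd2, the host of Scarna10, had 61.0, 52.5 and 56.3 units in control replicates 1 and 2 and knockdown replicate 3, and 18.6 units in replicate 4. Most of the annotated Scarna10 is counted in the Ncapd2 row and not in its own, so these values cannot be told apart from those of Scarna10. Limma's adjusted p for Ncapd2 was 0.0533, and the relative log2 change was -0.95 with all libraries and -0.19 without replicate 4. Rps3, the ribosomal protein host of Snord15b, had 160 and 141 units in the controls and 216 and 177 units in the knockdown libraries. It was above both controls while Snord15b was not.

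Over the 4 libraries the noncoding hosts Snhg10 and Snhg4 held 82.7% and 69.8% of their units in the small RNA. Scarna13 made up 76.9% and 76.5% of the Snhg10 reads in the controls (exact 95% intervals 56.4% to 91.0% and 58.8% to 89.3%) and 86.9% and 84.4% in the knockdown libraries (75.8% to 94.2% and 73.1% to 92.2%). Snora74a made up 83.3% of the Snhg4 reads in control replicate 1 (72.7% to 91.1%), 72.2% in control replicate 2 (62.8% to 80.4%), 69.4% in knockdown replicate 3 (57.5% to 79.8%) and 41.7% in knockdown replicate 4 (27.6% to 56.8%). These intervals cover counting error only and take each read as independent. The recovered reads are not all independent molecules, so that the intervals may be too narrow even for counting error. Those of control replicate 2 and knockdown replicate 3 overlap. With the small RNA reads taken off, Snhg10 held 0.872 and 0.987 units in the controls and 1.04 and 1.27 units in the knockdown libraries. The remainder of Snhg4 held 1.74 and 3.70 units in the controls and 2.87 and 3.56 units in the knockdown libraries. Except for Snhg4 in knockdown replicate 4, most reads of both host rows lay in the small RNA. Snhg1 had 8.86 and 8.02 units in the controls and 11.0 and 9.41 units in the knockdown libraries, and Snhg12 had 6.68 and 5.92 units against 9.91 and 7.50 units.

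The log2 ratio of the small RNA to the rest of its host was tested over all 400 nested row pairs of the table with enough reads, of which 8 were small RNAs in their hosts. After adjustment limma called 0 of the 8 and 0% of all pairs. At an unadjusted p under 0.05 there were 5 of 8, against 10.0% of all pairs. The groups did not overlap for 6 of the 8, with the knockdown below both controls in 4 and above in 2, where 18.5% of all pairs lay below and 18.5% above. Relative to the median pair, the ratio changed by -1.29 for Scarna6 (SE 0.38, adjusted p = 0.287), by -1.23 for Snora74a (SE 0.45, adjusted p = 0.422) and by -1.16 for Snord17 (SE 0.32, adjusted p = 0.257). The changes were -0.89 for Snord22, -0.81 for Snord15b, -0.24 for Scarna10, 0.53 for Snora44 and 0.78 for Scarna13. For Scarna10 the rest of the host row holds most of the annotated small RNA, so that its ratio cannot show whether it moved apart from Ncapd2. Without knockdown replicate 3 the ratios of Scarna6, Snora74a and Snord17 were called lower by limma, with adjusted p = 0.00954, 0.00415 and 0.0197, and without control replicate 2 that of Snora74a was (adjusted p = 0.0182). Of all pairs, 0.75% and 1.0% were called lower in those fits. Without knockdown replicate 4 the relative ratio changes of Scarna6, Snora74a and Snord17 were -0.78, -0.55 and -0.80, with adjusted p = 0.505, 0.739 and 0.450 in limma.

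**Figure D4:**
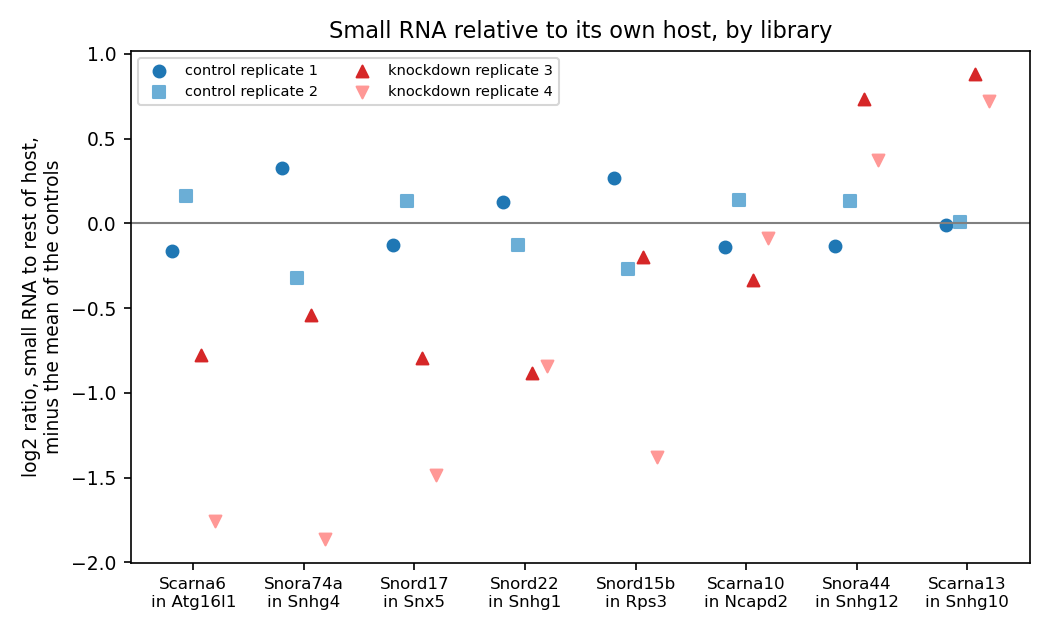
Log2 ratio of each small RNA to the rest of its host in every library, less the mean of the controls, so that 0 is the control mean; pairs are ordered by the mean change. The 2 knockdown libraries lie below both controls for Scarna6, Snora74a, Snord17 and Snord22, replicate 4 the lower for the first 3, and above both for Snora44 and Scarna13. The pairs of Snora44 and Scarna13 passed the filter only through the knockdown group.

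Replicate 4 of the knockdown held the lowest value of 6 of the 9 tested RNAs, where 10.0% of all tested rows and 21.4% of 28 other tested rows shorter than 350 nt had their lowest value there. Other structured RNAs were read beside them. Rmrp, the RNA of RNase MRP, had 1110 and 1087 units in the controls, 1131 units in replicate 3 and 563 units in replicate 4. Rpph1, the RNA of RNase P, had 2542 and 2483 units in the controls, 3388 units in replicate 3 and 1421 units in replicate 4. Both were thus lower in replicate 4 alone, and limma called Rmrp lower without control replicate 1 or 2, with adjusted p = 0.00168 and 6.17e-04. Terc, the telomerase RNA and an H/ACA RNA, had 0.872 and 0.987 units in the controls, 1.96 units in replicate 3 and 0.382 units in replicate 4, so that its groups overlapped. These came from 6, 8, 15 and 3 reads, and Terc passed the filter on low values only through knockdown replicate 3. Of the 4 other structured RNAs tested, with Vaultrc5 the fourth, limma called 0, edgeR called 0, and 1 had an unadjusted p under 0.05. Without replicate 4, limma called 0 of the 9 tested small RNA rows lower, and 0 of their 8 ratios to hosts, where it called 1.25% of all pairs lower.

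**Figure D5:**
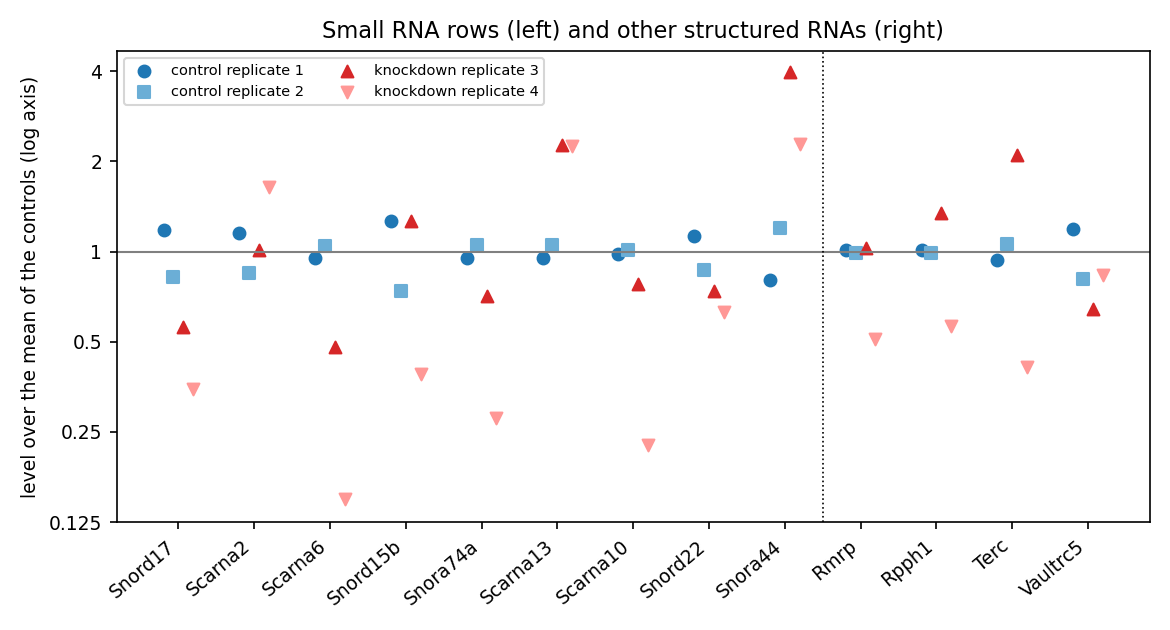
Level of each tested small RNA row (left of the dotted line) and of 4 other structured RNAs (right) in the 4 libraries, divided by the mean of the 2 controls (log axis). Knockdown replicate 4 is the lowest library for Snord17, Scarna6, Snord15b, Snora74a, Scarna10, Snord22, Rmrp, Rpph1 and Terc, but not for Scarna2, Scarna13, Snora44 or Vaultrc5. Terc rests on 3 to 15 reads per library.

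Of the proteins that hold these RNAs, each core group had a member that was called higher by limma. Among 4 tested box C/D core proteins, Fbl, the methyltransferase, was called higher by limma, with 2.03 and 2.10 units in the controls and 7.30 and 7.50 units in the knockdown libraries (relative log2 change 1.29, SE 0.33, adjusted p = 9.12e-04). Its edgeR adjusted p was 0.0397 and its DESeq2 adjusted p 0.186. The C/D core protein with the most reads, Nop58, had 28.5 and 27.5 units in the controls and 41.2 and 38.0 units in the knockdown libraries (limma adjusted p = 0.481). Among 4 tested H/ACA core proteins, Nhp2 was called higher by limma, with 6.39 and 3.82 units in the controls and 12.9 and 8.90 units in the knockdown libraries (adjusted p = 0.0265). Its edgeR adjusted p was 0.196, and it was not called by limma without control replicate 2 or knockdown replicate 3 (adjusted p = 0.345 and 1.0). Without knockdown replicate 3 limma's adjusted p for Fbl was 0.0982. Nop10, another H/ACA core protein, had 20.3 and 14.3 units against 22.0 and 17.0 units, with overlapping groups.

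None of 20 tested assembly and processing factors, 12 tested Cajal body proteins or 23 tested noncoding host genes was called by limma, with 2, 1 and 3 at an unadjusted p under 0.05, and edgeR called 0, 0 and 1. Their medians were 0.03, 0.16 and -0.04 on the relative log2 scale. The most abundant were Parn, which trims the ends of small RNAs, with 32.1 and 30.7 units in the controls and 37.2 and 39.8 units in the knockdown libraries, and Npat, a histone gene activator, with 23.8 and 19.2 units against 25.3 and 23.7 units. The noncoding host called lower by edgeR was Snhg3, named after its values were seen, with 45.3 and 35.0 units in control islets and 32.9 and 22.3 units in knockdown islets (adjusted p = 0.0292). Rian, the most abundant noncoding host, had 169 and 120 units in the controls and 146 and 161 units in the knockdown libraries. Of 30 tested genes of ribosomal RNA transcription and processing, limma called 1 higher and 0 lower. This was Utp14a, a small-subunit processing factor, with 5.08 and 6.17 units in the controls and 15.8 and 9.28 units in the knockdown libraries (adjusted p = 0.0174). Its edgeR adjusted p was 0.186, limma did not call it without knockdown replicate 3 (adjusted p = 1.0), and by edgeR 0 of the 30 were called. The counts of these lists stand beside 2.5% higher and 0.0516% lower over all rows.

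Summed markers of stellate, endothelial and duct cells were higher in both knockdown libraries. Among stellate cell, fibroblast and pericyte markers 10 of 14 were called higher by limma, where 2.5% of all rows were called higher. The sum of the 14 was 129 and 135 units in the controls against 402 and 311 units in the knockdown libraries. Lum, which was called, and Acta2, which was not, passed the filter only through the knockdown group. Endothelial markers were higher for 5 of 11 tested (188 and 158 units summed against 369 and 280) and duct markers for 4 of 9 (703 and 627 against 1297 and 857). EdgeR called 8 stellate, 4 endothelial and 2 duct markers higher. The most abundant duct marker was Spp1, with 252 and 251 units against 720 and 373. Krt7, Muc1 and Krt19, the last of them called by limma, overlapped between the groups. Without knockdown replicate 3 limma called 3 stellate, 0 endothelial and 0 duct markers higher. Of 8 tested macrophage markers, Lyz2 and Cd14 were called higher and the other 6 lay below the median change of all rows. Lyz2 passed the filter only through the knockdown group, and without knockdown replicate 3 neither was called. Acinar markers were called in 0 of 10 by limma and by edgeR (1 unadjusted), but they summed to 3125 and 6576 units in the controls, 5549 in replicate 3 and 2584 in replicate 4, and 9 of the 10 were lowest in replicate 4. Of these marker lists, only the acinar marker Amy2a5 was at 0 in all libraries. Endocrine markers, led by Ins2, summed to 85261 to 105248 units and were called in 0 of 9 by limma and by edgeR (0 unadjusted). After median-ratio scaling limma called 1 of them lower, Mafa (adjusted p = 0.0217). In such bulk samples fewer cells of a type and less RNA per cell cannot be told apart, and the part of these markers in the small RNA values was not tested. The targeted gene, listed as Taz, had 23.1 and 15.4 units in the controls and 13.8 and 12.7 units in the knockdown libraries, both below both controls (limma adjusted p = 0.529).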

How the data were processed

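Total RNA was sequenced from 4 pools of mouse islets, 2 per group, grouped by the genotype in the labels. Per the submitters' processing notes, which give no roles, STAR 2.5.1b, HOMER 4.9 and edgeR were used with the build mm10. The authors deposited 1 table, in which each signal value is the reads of a row per 10000000 of the library's total. They were read as counts over whole gene spans without regard to strand, so that reads of overlapping rows cannot be told apart. Whole reads were recovered from the deposited steps (100% whole within 0.01). Recovered reads from 1 to 9 were even for 87.9% of values in rows of at least 5000 nt and for 28.9% in rows under 350 nt, so that they are not all independent molecules.

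Rows with a mean of at least 1 unit over the 4 libraries were tested with limma 3.58.1 in R 4.3.3, with a mean-variance trend and a pseudocount of 1. Small RNA to host ratios were tested over all nested pairs after the inner reads were taken off. The host was the containing row, on the same strand first, then the shortest. Alternatives were median-ratio and TMM scaling, other pseudocounts and filters, edgeR 4.0.16 and DESeq2 1.42.0 on the recovered reads, and leaving out each library. The scripts were tested on simulated data. Genes were named by rule (called rows, tested Scarna rows, the largest changes without overlap, the densest rows, their hosts, and each list's called and most abundant genes), with exceptions marked. Snord104, Snora78, Snord15a, Rmrp, Terc and Vaultrc5 were likewise named after their values were seen. The members and lists were chosen with earlier results of these data known. GENCODE M21 gave lengths and sequences.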

Additional observations from a re-analysis of the deposited data

How the results depend on the processing

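Snord17, Scarna6 and Snora74a kept their direction under every alternative run, but the calls did not all hold. Of the small RNA rows, 3 were called lower by limma, against 1 with DESeq2 and 2 with median-ratio or TMM scaling or edgeR. Without a filter on low values 6 small RNA rows had an unadjusted p under 0.05 in limma, 4 of them lower. No row of the table was called in that fit, so that 0 small RNA rows were called lower. On leaving out a library the number called varied in limma and in edgeR, whose fits on leaving out a library were added after seeing the data. Such fits hold 1 library in a group, so that a count of calls cannot be read as a result about the small RNAs. Without a variance trend 2 small RNA rows were called higher, Scarna13 and Snora44, the latter having passed the filter only through the knockdown group. Over all rows the counts of 339 higher and 7 lower became 148 and 21 with median-ratio scaling, 141 and 19 with TMM, 0 and 0 without a filter (1482 unadjusted), 528 and 18 without a trend, 163 and 18 with edgeR, and 81 higher with DESeq2. Leaving out a library gave 28 to 1266 higher and 3 to 59 lower in limma, and 0 to 388 higher (62 without knockdown replicate 3) and 0 to 56 lower in edgeR. Hosts called higher numbered 1, but 0 with median-ratio or TMM scaling, edgeR, DESeq2 or no filter, 2 without a trend, and 0 to 14 on leaving out a library. Hosts called lower numbered 0, but 1 with median-ratio or TMM scaling or edgeR, and 0 to 2 on leaving out a library. The median of the tested small RNA rows, -0.55, was -1.20 over the 3 of at least 200 nt in the table, and ranged from -1.24 to -0.49 in limma on leaving out a library, with -1.49 in edgeR without knockdown replicate 3. Ratios to hosts called lower numbered 0 to 3 on leaving out a library.

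Reversals came mostly from leaving out a library. On leaving out a library, Scarna2 ranged from -0.15 (without knockdown replicate 4, also by edgeR) to 0.49 and Snord15b from -1.24 to 0.16 (edgeR 0.18 without knockdown replicate 4). Rpph1 ranged from -0.98 (without knockdown replicate 3, where edgeR called it lower at -0.99) to 0.25 (edgeR 0.24 without knockdown replicate 4). Snhg1 ranged from -0.015 to 0.16 (edgeR -0.0042), Nop10 from -0.16 to 0.17 (edgeR -0.17 and -0.10), and Npat from -0.020 to 0.048 (edgeR -0.018 and -0.0028). Parn came to -0.0068 by edgeR without control replicate 1, and Rian ranged from -0.16 to 0.052 (edgeR 0.025 and 0.016). Terc came to 0.13 with edgeR and 0.13 with DESeq2, and ranged from -0.64 to 0.43 on leaving out a library (edgeR 0.36 and 0.86). The cause was not tested. Small RNA rows of 46 to 304 reads limit the precision. No paired analysis was possible because the groups share no replicate number.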
